A study of Mus musculus with 2 samples.

Results

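The deep cells are the barcodes with the most RNA in 2 single-cell libraries of cultured adipose progenitors, and they lie above the upper limits that the study set on detected genes and unique molecular identifiers (UMIs). They were selected on 2 measured values, at least 7700 detected genes or at least 60000 UMIs, so both values describe the choice and are no finding. Of 12270 cells in all, 651 met this rule. In white adipose tissue (WAT) 239 of 5261 cells did (4.54%), and in brown adipose tissue (BAT) 412 of 7009 (5.88%). Because of their depth these cells held 10.3% of all UMIs of the white library and 12.7% of those of the brown library.

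Progenitors came from subcutaneous white and interscapular brown depots of untreated C57/BL6J pups of both sexes, labelled P0, without a transgene or deletion. The study's methods give an age of the following day, and the label is used here. The white tissue was digested with collagenase for 35 minutes and the brown for 50 minutes, and the cells were grown to confluency in 4 days before they were lifted with trypsin. A 10x Genomics 3' library was made from a pool of pups per depot, so each depot is 1 library with no replicate. No p-value or standard error was therefore computed, and the intervals below are at 95% and cover counting error only. They are exact, except that those of a difference between shares combine the exact bounds of both shares and are approximate. Deep cells were set against the passing cells of their own library, which have more than 3900 and fewer than 7700 genes, 6000 to 60000 UMIs and 1.7 to 5% of UMIs from mitochondrial genes. There were 4407 white and 6137 brown passing cells. For BAT this is not the number stated in the study's methods, and the cause was not tested. Of the 9 barcodes that the libraries share, 0 belonged to a deep cell.

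Adipocyte precursors are mesenchymal cells that carry the PDGF receptors, secrete fibrillar collagens and small proteoglycans such as decorin and lumican, and divide in culture before they differentiate. A cell accumulates RNA as it grows through the cell cycle, so that cells close to division hold more of it than cells that have just divided. A barcode that captured more than 1 cell holds the RNA of all of them, and upper limits on genes and UMIs are commonly set with such barcodes in view.

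White deep cells had a median of 59884 UMIs (45181 to 107653) and 8052 genes, against 26903 UMIs and 5853 genes in white passing cells. Brown deep cells had a median of 62026.5 UMIs (43783 to 120708) and 8052.5 genes, against 26342 and 5718. The limit on genes decided most of the membership. In WAT 122 deep cells exceeded it alone, 115 exceeded both limits and 2 exceeded the limit on UMIs alone, and in BAT these numbers were 167, 229 and 16. Thinned to 10000 UMIs, the 16 brown cells chosen by UMIs alone had a median of 3049.5 genes and the 167 chosen by genes alone one of 3672, an order that the rule itself fixes. Mitochondrial shares were not unusual. Their median was 2.88% in white deep cells and 3.05% in white passing cells, and 2.83% and 2.98% in the brown ones, and 236 of 239 and 408 of 412 deep cells lay within the mitochondrial limits. Just inside the rule, 106 white cells of 7700 to 7999 genes had 41.5% of cells scored as G2/M, and just outside it, 167 cells of 7400 to 7699 genes had 40.7%. The corresponding brown shares were 41.1% of 163 cells and 34.3% of 233 cells.

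**Figure D1:**
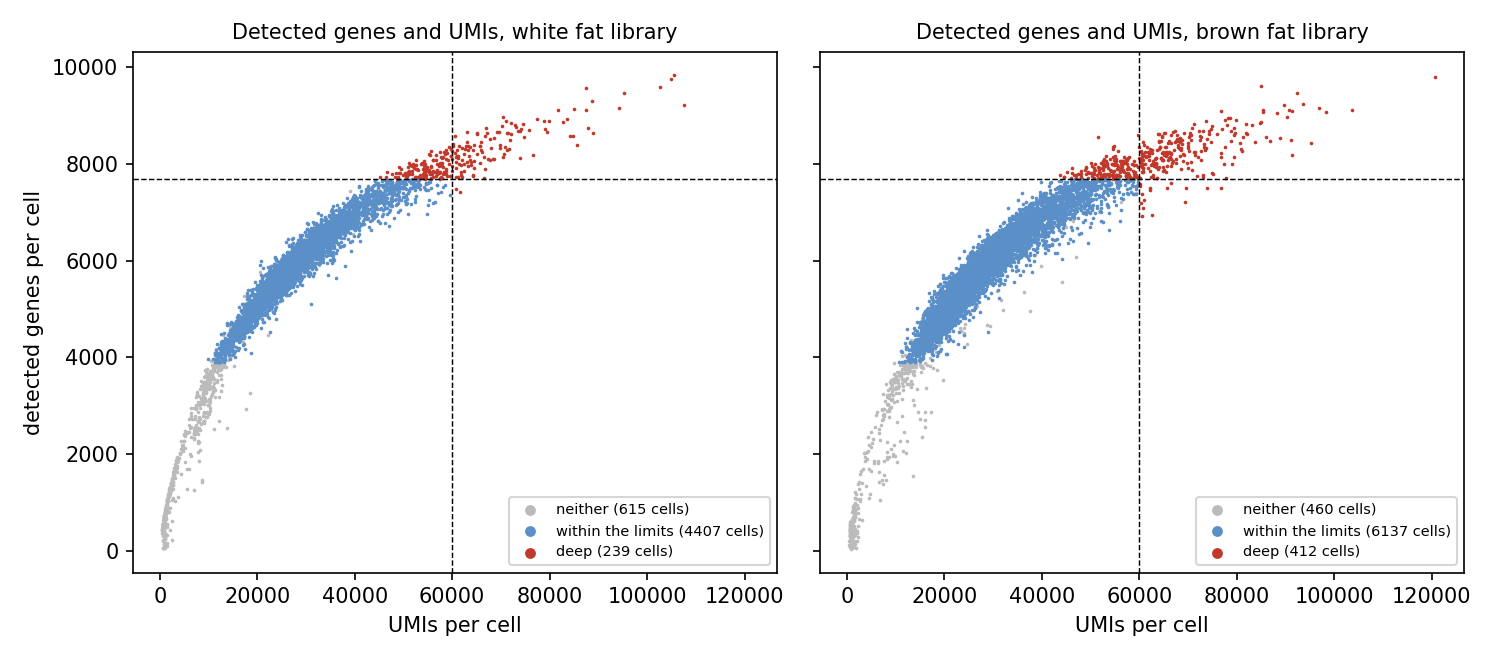
Detected genes against UMIs for each cell of the white (left) and brown (right) library, with dashed lines at 7700 genes and 60000 UMIs. The 239 white and 412 brown deep cells (red) continue the curve of the passing cells (blue) without a gap.

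The label of the cells as adipose precursors was checked against its markers. At least 5 UMIs of the 8 precursor markers, counted in 10000 UMIs per cell, were present in 237 of 239 white deep cells (99.2%) and in all 412 brown ones, and in 99.5% of white and 99.0% of brown passing cells. Cells with markers of other types are among these, so this share does not separate precursors from them. Pdgfra, a receptor that marks these precursors (ENSMUSG00000029231, chromosome 5, 75152292 to 75198215), reached 123 CPM (the UMIs of a gene per 1000000 UMIs, summed over a group of cells) in white deep and 115 CPM in white passing cells. In BAT it reached 85.9 and 81.9 CPM. Pdgfrb, the related receptor, stood at 152 and 151 CPM in WAT and at 146 and 144 CPM in BAT. Dlk1, a marker of undifferentiated precursors, was lower in deep cells, at 410 against 494 CPM in WAT and 288 against 377 CPM in BAT. Of all 8 precursor markers 2 had ratios above 0 in WAT and 3 in BAT, and Dcn and Lum were past 1.5-fold lower in both, beside 0.297% of all genes tested in WAT and 0.291% in BAT. The medians of the list were -0.22 and -0.14 on the log2 scale.

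Deep cells were more often in the mitotic part of the cell cycle. Each cell was thinned to 10000 UMIs and classed by S and G2/M gene scores, which left out 1 white passing cell with fewer UMIs. In WAT 116 of 239 deep cells were classed as G2/M (48.5%, 42.0 to 55.1%), against 939 of 4406 passing cells (21.3%, 20.1 to 22.6%). In BAT the numbers were 181 of 412 (43.9%, 39.1 to 48.9%) and 1276 of 6137 (20.8%, 19.8 to 21.8%). The share in S was 23.8% of deep and 17.5% of passing cells in WAT, and 20.6% and 16.8% in BAT. Cells in G1 made up 27.6% of white and 35.4% of brown deep cells, against 61.1% and 62.4% of passing cells. The classes are ranges of a score, and 23 white and 65 brown deep cells had an S or G2/M score within 0.02 of 0, where the classes meet. The part of free RNA in these calls was not tested.

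The G2/M share differed with depth below the limit as well, without a steady order in BAT. The ranges below 45000 UMIs were taken over cells under the upper limits and within the mitochondrial limits. With 6000 to 15000 UMIs the share stood at 14.4% of 160 (white) and 23.5% of 115 (brown, 16.1 to 32.3%). With 15000 to 30000 UMIs it stood at 16.3% and 15.2%, and with 30000 to 45000 UMIs at 29.7% and 31.1%. In the 232 white and 389 brown passing cells of 45000 UMIs or more it was 33.6% (27.6 to 40.1%) and 28.5% (24.1 to 33.3%). These uppermost passing cells were therefore taken as a second comparator. It was chosen by UMIs, and the rule leaves it only cells of fewer than 7700 genes. Deep cells above the limit on genes alone spanned much the same UMIs (45181 to 59987 in WAT, 43783 to 59978 in BAT). The rule set them apart from the comparator by gene number. All deep cells exceeded the uppermost passing cells by 14.9 percentage points in WAT (5.75 to 23.8) and by 15.4 in BAT (8.59 to 22.0). The part of gene number in this excess was not tested. Just under the limit on genes the G2/M share was 40.7% in WAT and 34.3% in BAT, and just over it 41.5% and 41.1%. Within the white deep cells the share was 56.5% of the 115 above both limits and 41.8% of the 122 above the limit on genes alone. In BAT the same shares were 45.0% and 43.7%.

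**Figure D2:**
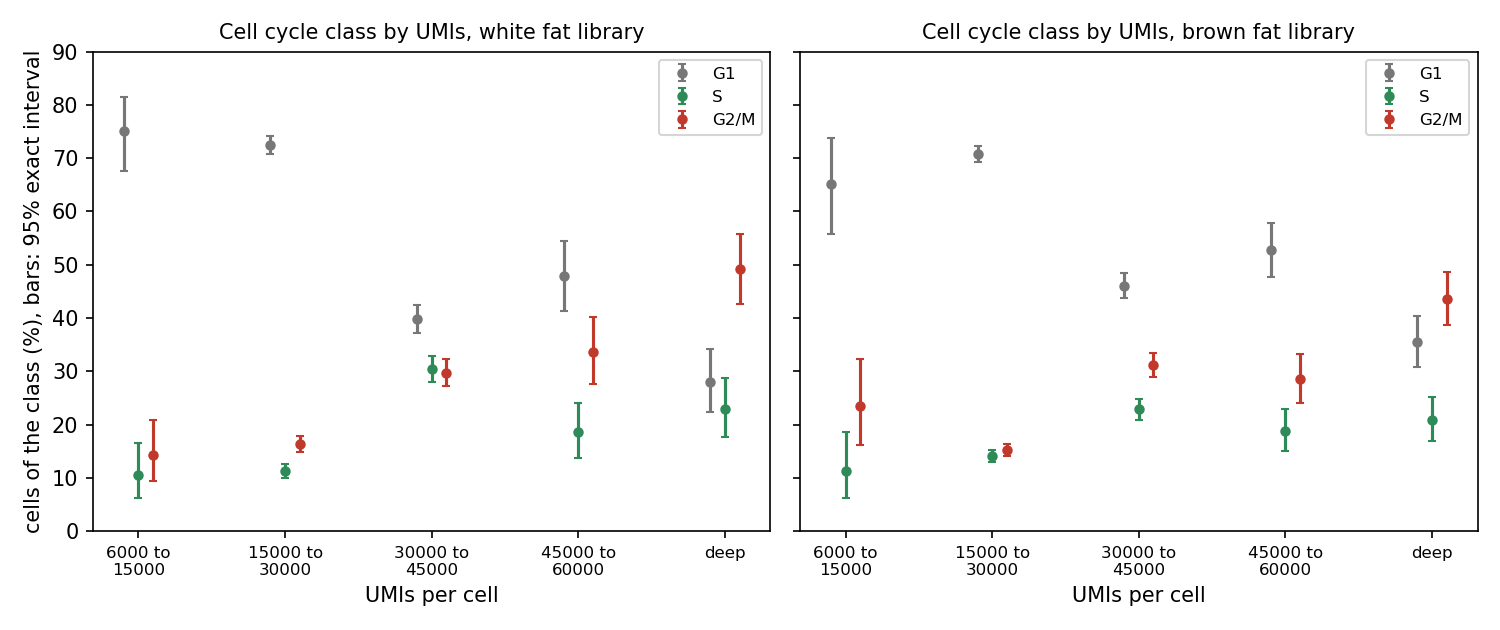
Share of cells classed as G1, S and G2/M, in percent with exact 95% intervals, by UMIs per cell for passing and deep cells of the white (left) and brown (right) library. The class deep holds the 236 white and 408 brown deep cells within the mitochondrial limits, and in both libraries it has the highest G2/M share, 49.2% and 43.6%.

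Differences in expression were taken as the log2 ratio of deep over passing cells in CPM, and a gene was counted when it was past 1.5-fold with at least 20 CPM in either group. In WAT 199 of 7060 genes were higher by this rule (2.82%) and 21 were lower (0.297%). In BAT 87 of 6880 were higher (1.26%) and 20 were lower (0.291%). Of the higher genes 83 were counted in both libraries, which is 41.7% of the white and 95.4% of the brown genes, and 11 lower genes were counted in both, 52.4% and 55.0%. The median log2 ratio of all genes was 0.05 in WAT and 0.04 in BAT. The limit on genes favours cells that express many genes, so these counts describe the selected cells.

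Of the 50 G2/M genes that reached 20 CPM, of 54 listed, 37 were past 1.5-fold higher in WAT and 28 in BAT, and 0 were lower. All 50 had ratios above 0, with medians of 0.78 and 0.64. The mitotic spindle and cytokinesis list was higher throughout, with 12 of 12 genes in WAT (median 0.92) and 11 of 11 in BAT (median 0.75). The S phase list followed at a distance, with 8 of 31 genes past the fold in WAT (median 0.44) and 1 of 27 in BAT (median 0.31). The single brown gene was Rrm1, a subunit of ribonucleotide reductase, at 121 against 80.7 CPM.

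Cenpf, a kinetochore protein (ENSMUSG00000026605, chromosome 1, 189640606 to 189688086), reached 182 CPM in white deep and 85.6 CPM in white passing cells, a log2 ratio of 1.09 (1.03 to 1.15). In BAT it reached 150 and 74.98 CPM, a ratio of 1.00 (0.95 to 1.05). Prc1, which bundles microtubules of the central spindle (ENSMUSG00000038943, chromosome 7, 80294450 to 80316259), stood at 188 against 82.6 CPM in WAT and at 143 against 73.4 CPM in BAT. The ratios were 1.18 (1.12 to 1.24) and 0.96 (0.91 to 1.01). Kif11, a motor of spindle assembly, was 2.07-fold higher in the white and 1.93-fold higher in the brown deep cells. Top2a, the topoisomerase that untangles sister chromatids, was at 343 against 164 CPM in WAT and at 252 against 139 CPM in BAT. Mki67, which coats mitotic chromosomes, was at 231 against 116 CPM and at 167 against 93.0 CPM. Ube2c, the ubiquitin-conjugating enzyme of the anaphase-promoting complex, was at 248 against 117 CPM and at 228 against 129 CPM. No single cell decided the level of Top2a, since the cell with most of its UMIs held 1.45% of those in white and 1.29% of those in brown deep cells.

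The promoters of G2/M genes often hold a CCAAT box and the cell cycle genes homology region (CHR), both bound by complexes that act on these genes late in the cycle. Their letters were searched on both strands in the 250 bases before the start of each gene in RefSeq (GRCm38.p6), as CCAAT and as TTTGAA. Matches that share a base were not left out. Of the G2/M list 47 genes had such a window. CCAAT was present in 36 of them (76.6%), against 34.5% of 27025 genes of the table, and TTTGAA in 19 (40.4%), against 16.3%. Of 31 windows of the S phase list 22 held CCAAT (71.0%), close to the G2/M list, and 5 held TTTGAA (16.1%). Of 11 windows of the p53 list 5 held CCAAT (45.5%) and 2 TTTGAA (18.2%). Both were present in 17 of the 47 (36.2%), against 5.73% of all genes. Of the 10 G2/M genes among those with the largest ratios 9 had a window, of which 8 held CCAAT and 5 held both, while Cenpf, Prc1 and Cenpe, a kinetochore motor, held CCAAT alone. The 120 bases before the start are shown for 4 of these genes, 3 with both words and 1 with neither, with the matches in capitals (TTTGAA reads TTCAAA and CCAAT reads ATTGG on the other strand).
Kif11, chr19:37376262-37376381, forward strand: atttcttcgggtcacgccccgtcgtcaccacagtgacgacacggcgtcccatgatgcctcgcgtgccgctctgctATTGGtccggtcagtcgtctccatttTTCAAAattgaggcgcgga
Top2a, chr11:99024190-99024309, reverse strand: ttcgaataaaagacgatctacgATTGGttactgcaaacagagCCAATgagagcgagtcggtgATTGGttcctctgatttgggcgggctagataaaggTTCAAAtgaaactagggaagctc
Ckap2, chr8:22185820-22185939, reverse strand: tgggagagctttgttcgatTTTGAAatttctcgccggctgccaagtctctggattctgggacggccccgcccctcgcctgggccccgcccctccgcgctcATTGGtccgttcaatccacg
Nusap1, chr2:119618178-119618297, forward strand: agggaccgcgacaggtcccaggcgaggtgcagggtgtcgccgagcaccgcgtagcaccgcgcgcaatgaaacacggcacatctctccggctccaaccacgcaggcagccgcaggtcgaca
Kif11, Top2a and Ckap2, a spindle protein, hold both words in this stretch, and Nusap1, a microtubule-binding protein of the spindle, holds neither in the 250 bases. Nusap1 nevertheless stood at 67.4 against 31.6 CPM in WAT and at 56.5 against 30.8 CPM in BAT. A match of letters is a description and no measurement of binding.

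Against the uppermost passing cells the mitotic genes differed less. In WAT 75 genes were past 1.5-fold higher in deep cells (1.07% of 7014) and 8 lower (0.114%), and in BAT 60 were higher (0.875% of 6858) and 13 lower (0.190%). Of the G2/M list 3 of 50 genes were past the fold in WAT and 14 of 50 in BAT, with medians of 0.37 and 0.44. Prc1 then had ratios of 0.41 (0.32 to 0.50) and 0.51 (0.43 to 0.59). Hist1h1b, a linker histone made in S phase, was at 101 CPM in brown deep and at 52.2 CPM in the uppermost brown passing cells, while in WAT it was at 149 and 125 CPM. Many histone genes resemble each other closely, so that single counts of histone genes are uncertain. How far this holds for Hist1h1b was not tested.

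When only cells classed as G2/M were compared, the mitotic difference was nearly gone. The median of the G2/M list was -0.03 in WAT and -0.07 in BAT. Mki67 reached 391.6 CPM in white deep and 388 CPM in white passing G2/M cells, and 314 and 321 CPM in the brown ones. The cyclin Ccnb2 was lower in deep G2/M cells, at 78.6 against 122 CPM in WAT and at 100.1 against 134 CPM in BAT. Cdc20, an activator of the anaphase-promoting complex, was also lower, at 130.1 against 177 CPM and at 142 against 224 CPM. Because the same genes enter the score that classed these cells, this comparison is a description.

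**Figure D3:**
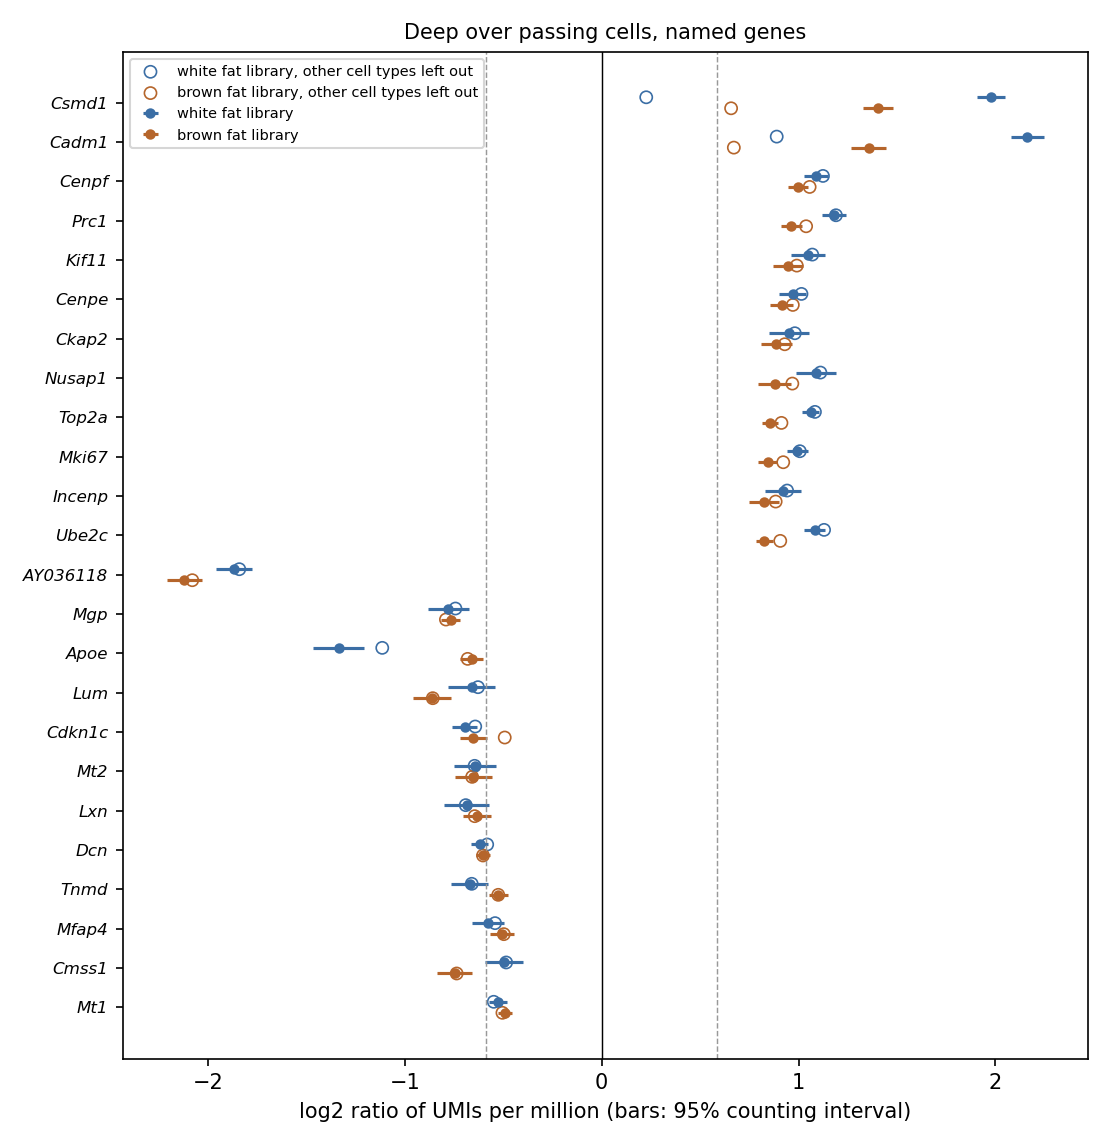
Log2 ratio of deep over passing cells in CPM for the 12 genes highest and the 12 lowest in both libraries, with exact 95% intervals of counting error. Open circles give the ratios without cells that carry glial, myeloid or myogenic markers, and dashed lines mark 1.5-fold. Csmd1 and Cadm1 move most between filled and open circles, in WAT from 1.98 to 0.23 and from 2.16 to 0.89.

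Csmd1 and Cadm1, which had the largest positive ratios of the genes at 50 CPM or more in both libraries, came from a few cells. Csmd1, a large membrane protein (ENSMUSG00000060924, chromosome 8, 15892537 to 17535586), reached 163 CPM in white deep and 41.4 CPM in passing cells, and Cadm1, an adhesion protein, 122 and 27.3 CPM. In BAT they reached 74.3 against 28.1 and 55.5 against 21.7 CPM. Of their UMIs in white deep cells 98.6% and 94.9% lay in 10 cells with at least 5 UMIs of the 8 glial markers. Without glial, myeloid and myogenic cells Csmd1 was at 2.34 against 2.00 CPM in WAT and Cadm1 at 2.05 against 1.11 CPM. In BAT they then stood at 8.46 against 5.37 and at 3.16 against 1.98 CPM.

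Cells with glial markers made up 10 of 239 white deep cells (4.18%, 2.02 to 7.56%), against 48 of 4406 passing cells (1.09%, 0.804 to 1.44%). In BAT they made up 9 of 412 (2.18%, 1.00 to 4.11%) and 70 of 6137 (1.14%, 0.890 to 1.44%). Sox10, the transcription factor that defines glia, was at 211 CPM in the white glial-marked deep cells and at 262 CPM in the white glial-marked passing cells. The whole precursor list had a median of 4856 CPM per cell in the deep and 3320 CPM in the passing ones, with ranges that overlap. Pdgfra reached 32.9 CPM (20.1 to 50.9) there against 5.29 CPM (1.94 to 11.5) in the passing ones, and Dcn, the proteoglycan decorin, 77.4 against 20.3 CPM. In BAT Pdgfra reached 20.4 CPM (10.9 to 34.9) in the 9 deep and 16.3 CPM (10.7 to 23.9) in the 70 passing glial-marked cells, intervals that overlap. Dcn was higher in these 9 cells, at 98.8 CPM (75.9 to 126) against 44.6 CPM (34.9 to 56.3). Col1a1 was at 3058 against 1677 CPM, and the precursor list had a median of 5322 against 3597 CPM per cell, with ranges that overlap. The doublet caller Scrublet marked 0 cells of either library and was not used. Xist and Y gene UMIs in the same barcode are counted below, which misses cells of the same sex. Beyond that, whether these barcodes held more than 1 cell was not tested.

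Cells with myeloid markers numbered 3 of 239 in white and 12 of 412 in brown deep cells (1.26% and 2.91%), against 0.704% and 1.29% of passing cells. In the 12 brown deep cells Tyrobp, a signalling adaptor of myeloid cells, was at 623 CPM, against 1506 CPM in the 79 brown passing cells with these markers. Pdgfra was at 55.9 CPM (39.7 to 76.4) in the 12 cells and at 16.2 CPM (11.3 to 22.6) in the 79. The median level of the whole precursor list per cell was 8924 CPM in the 12 cells and 360 CPM in the 79, and in the 3 white cells it was 300.2 CPM. The range of the 12 cells (4268 to 11759 CPM) lay within that of the 79 (23.7 to 20907 CPM). Xist and Y gene UMIs stood together in 3 of the 12 and in 2 of the 79, and in 1 of the 3 white deep cells and 0 of the 31 white passing cells with myeloid markers. Among cells with glial markers they stood together in 0 of 10 deep and 1 of 48 passing cells in WAT and in 0 of 9 and 2 of 70 in BAT. Myogenic markers were found in 0 of 239 white deep cells, which allows a share of up to 1.26% by 3 counts and of up to 1.53% by the exact interval, and in 2 of 412 brown ones (0.485%). Mural markers were found in 23 of 239 white deep cells (9.62%, 6.20 to 14.1%), an interval that holds the 11.6% of white passing cells. In BAT they were less frequent in deep cells, in 60 of 412 (14.6%, 11.3 to 18.3%) against 22.6% (21.5 to 23.6%). The median level of the mural list per cell, without thinning, was 110.5 CPM in deep and 84.1 CPM in passing cells of WAT, and 165 and 158 CPM in BAT. Summed over all cells the mural list ran the other way, at 201 against 242 CPM in WAT and at 256 against 319 CPM in BAT. Endothelial, erythroid and epithelial markers reached 5 UMIs in 0 deep cells of either library.

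The whole marker lists were also summed over all cells. The glial list stood at 126 CPM in white deep and 47.2 CPM in passing cells, led by Cdh19, and at 64.6 and 36.7 CPM in BAT. The myeloid list stood at 103 and 111 CPM in WAT and at 155 and 163 CPM in BAT, led by Lyz2. The myogenic list summed to 3.69 and 3.44 CPM in WAT, where Myod1, Myf5, Myog and Pax7 were at 0 in deep cells, and to 12.8 and 39.5 CPM in BAT, where Des was the most abundant of its genes. Without the glial, myeloid and myogenic cells the counts past 1.5-fold were 165 higher and 22 lower in WAT and 90 higher and 16 lower in BAT. The spindle list kept its 12 of 12 and 11 of 11 genes past the fold, with medians of 0.95 and 0.82.

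The pups were of both sexes, so that RNA of a female and of a male cell can be seen in 1 barcode. Xist, the RNA of the inactive X chromosome (ENSMUSG00000086503, chromosome X, 103460366 to 103483254), and the Y genes Ddx3y, Uty, Kdm5d and Eif2s3y were counted at 10000 UMIs per cell. Both were present in 28 of 239 white deep cells (11.7%, 7.93 to 16.5%), against 47 of 4406 passing cells (1.07%, 0.785 to 1.42%). The part of free RNA in these shares was not tested. In the uppermost white passing cells the share was 9 of 232 (3.88%, 1.79 to 7.24%), below the white deep cells with intervals that do not overlap. In BAT the share was 22 of 412 deep cells (5.34%, 3.38 to 7.97%) and 87 of 6137 passing cells (1.42%, 1.14 to 1.75%). The uppermost brown passing cells, with 23 of 389 (5.91%, 3.78 to 8.74%), did not differ from the deep ones beyond counting error.

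With at least 2 UMIs of each kind, 6 of 239 white deep cells and 3 of 4406 passing cells remained, and 5 of 412 and 11 of 6137 brown ones. Without thinning, both kinds were found in 19.2% of white and 16.5% of brown deep cells, against 2.56% and 3.32% of passing cells, whose median depth is lower (26903 and 26342 UMIs against 59884 and 62026.5). Such a count misses barcodes with cells of the same sex. Cells with Y UMIs alone were 17.2% of white deep and 18.1% of white passing cells, and 8.25% and 11.6% in BAT.

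**Figure D4:**
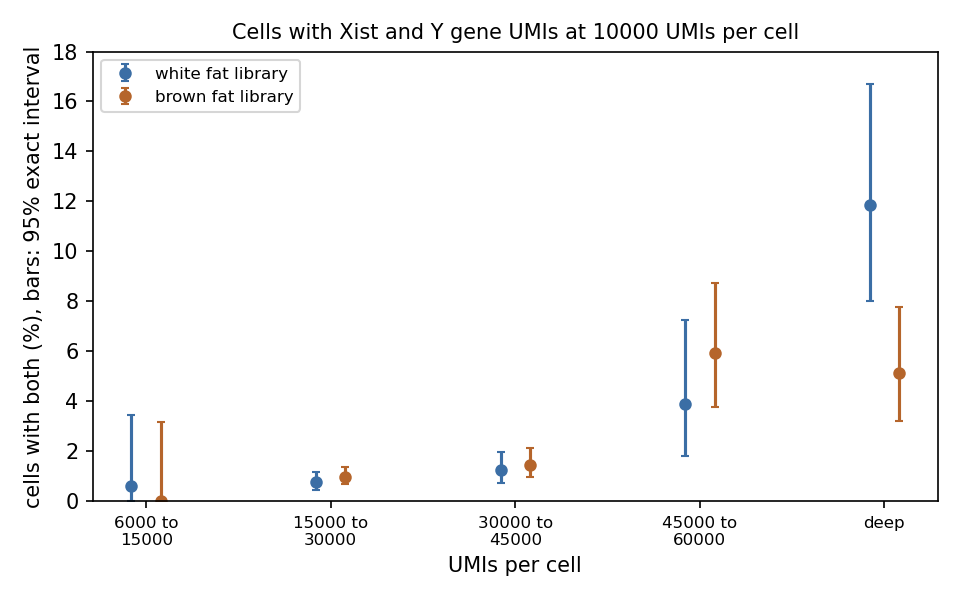
Share of cells with both Xist and Y gene UMIs at 10000 UMIs per cell, in percent with exact 95% intervals. Cells below the upper limits and within the mitochondrial limits are shown by UMIs per cell, followed by the deep cells. Deep is no further range of UMIs, since it includes cells chosen by genes alone with fewer than 60000 UMIs. The share lies below 2% up to 45000 UMIs in both libraries, at 3.88% in WAT and 5.91% in BAT between 45000 and 60000 UMIs, and at 11.9% and 5.15% in deep cells within the mitochondrial limits.

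Of the deep cells with both kinds of UMIs, 15 of 28 white cells (53.6%) and 11 of 22 brown cells (50.0%) were classed as G2/M. Without them the G2/M share of deep cells was 47.9% in WAT and 43.6% in BAT, close to the shares of all deep cells. Of the passing cells with both kinds, 27.7% of 47 in WAT and 20.7% of 87 in BAT were classed as G2/M. The G2/M excess over passing cells was 26.6 percentage points in WAT and 22.8 in BAT without the barcodes that hold both kinds, and 27.2 and 23.1 with them.

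The proteoglycans Dcn and Lum, Mgp and Cdkn1c were among the genes past 1.5-fold lower in deep cells of both libraries. Dcn (ENSMUSG00000019929, chromosome 10, 97479609 to 97518143) was at 308 against 473 CPM in WAT, a log2 ratio of -0.62 (-0.66 to -0.58), and at 282 against 429 CPM in BAT, -0.60 (-0.64 to -0.57). Lum, the related proteoglycan lumican, was at 41.0 against 64.6 CPM and at 36.5 against 66.3 CPM. Mgp, an inhibitor of calcification, was at 54.8 against 94.0 CPM in WAT and at 133 against 226 CPM in BAT. Cdkn1c, the cyclin-dependent kinase inhibitor p57, was at 146 against 236 CPM and at 72.2 against 113 CPM. Without glial, myeloid and myogenic cells, Cdkn1c in BAT (71.2 against 100.2 CPM) and Dcn in WAT (321 against 481 CPM) were no longer past the fold. Mt2, a metallothionein, and Lxn, the protease inhibitor latexin, were past 1.5-fold lower in both as well. The collagens were not. The collagen list had medians of -0.06 and -0.02 with 0 of 11 genes past the fold in either library, and Col1a2 was at 5274 against 5438 CPM in WAT and at 4931 against 4916 CPM in BAT.

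Apoe, a lipid carrier, was at 35.3 against 89.1 CPM in WAT, a ratio of -1.34 (-1.46 to -1.21), and at 94.5 against 149 CPM in BAT, -0.66 (-0.72 to -0.60). Cells with myeloid markers held 19.3% of the white and 18.3% of the brown UMIs of Apoe in passing cells. Without the glial, myeloid and myogenic cells the ratios were -1.11 and -0.68. Tnmd, a membrane protein of connective tissue, was at 66.5 against 106 CPM in WAT and at 138 against 198 CPM in BAT.

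The lowest ratio of all named genes was that of AY036118, a locus similar to ribosomal RNA on chromosome 17 (39847113 to 39848035), whose counts are uncertain because of that likeness. It was at 67.1 against 245 CPM in WAT (-1.87, -1.96 to -1.78) and at 40.6 against 176 CPM in BAT (-2.12, -2.21 to -2.03). UMIs per cell were taken over cells within the mitochondrial limits, whether or not they reached the lower limit on genes. The lowest range thus held 281 white and 244 brown cells, and the deep cells numbered 236 and 408. The deep cells are no further range of UMIs, since they include cells chosen by genes alone with fewer than 60000 UMIs. Those of AY036118 were 6.53 in white cells of 6000 to 15000 UMIs, 7.36 in those of 15000 to 30000 and 6.54 in those of 30000 to 45000. They were 4.56 in white cells of 45000 to 60000 UMIs and 4.22 in deep cells. In BAT the same values were 4.85, 5.53, 4.34, 2.82 and 2.58. The UMIs of AY036118 per cell were thus highest between 15000 and 30000 UMIs and lowest in deep cells. Those of Dcn were 6.81 per white cell in the lowest range and 19.3 in deep cells, and 6.63 and 17.9 per brown cell.

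Since cycle classes differed so much, the comparison was repeated in G1 cells without the cells that carry glial, myeloid or myogenic markers. It set 63 deep against 2659 passing cells in WAT and 141 against 3760 in BAT. In WAT 71 of 6860 genes were past 1.5-fold higher (1.03%) and 54 lower (0.787%), and in BAT 33 of 6725 were higher (0.491%) and 32 lower (0.476%). Of these, 17 higher and 13 lower genes were counted in both libraries. The higher ones were 23.9% of the white and 51.5% of the brown genes, and the lower ones 24.1% and 40.6%.

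Cyclin D1 (Ccnd1, ENSMUSG00000070348, chromosome 7, 144929931 to 144939925), which drives cells through G1, was at 67.5 against 33.98 CPM in WAT and at 68.7 against 32.8 CPM in BAT. The ratios were 0.99 (0.80 to 1.17) and 1.07 (0.94 to 1.19). Hmga2, a chromatin protein of growing mesenchyme, was at 289 against 162 CPM and at 240 against 138 CPM, and 1 cell held 10.1% and 11.1% of its UMIs in deep cells. Targets of p53, the tumour suppressor that halts damaged cells, were higher as a list, with ratios above 0 for 12 of 13 genes in WAT and 13 of 13 in BAT. The medians were 0.39 and 0.45, and 4 genes were past the fold in each library. Cdkn1a, the kinase inhibitor p21, was at 244 against 124 CPM in WAT (0.98, 0.88 to 1.07) and at 341 against 202 CPM in BAT (0.75, 0.70 to 0.81). Ccng1, cyclin G1, was at 193 against 98.1 CPM and at 232 against 133 CPM. Mdm2, the ligase that degrades p53, and Trp53inp1 were past the fold in WAT alone, at 2.10-fold and 1.83-fold, and Gdf15, a stress cytokine, and Zmat3 in BAT alone, at 1.85-fold and 1.63-fold. The difference between the libraries was not tested.

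With all cycle classes together, the p53 targets were not higher than in the uppermost passing cells. The classes were mixed differently, with G1 at 27.6% of white and 35.4% of brown deep cells. In the uppermost passing cells G1 stood at 47.8% and 52.7%. The comparison with the uppermost passing cells was not made within G1. Over all cycle classes the summed list was at 1501 CPM in white passing cells of 45000 to 60000 UMIs and at 1339 CPM in the deep cells within the mitochondrial limits, and at 1811 and 1761 CPM in BAT. Cdkn1a was at 204 CPM in the uppermost white passing and at 168 CPM in the white deep cells, and at 292 and 272 CPM in BAT. Among cells of 15000 to 30000 UMIs within the mitochondrial limits it was at 86.7 CPM in WAT and 149 CPM in BAT. Ccnd1, by contrast, was lower in the uppermost passing cells than in the deep ones, at 75.5 against 100.1 CPM in WAT and at 62.4 against 76.3 CPM in BAT.

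**Figure D5:**
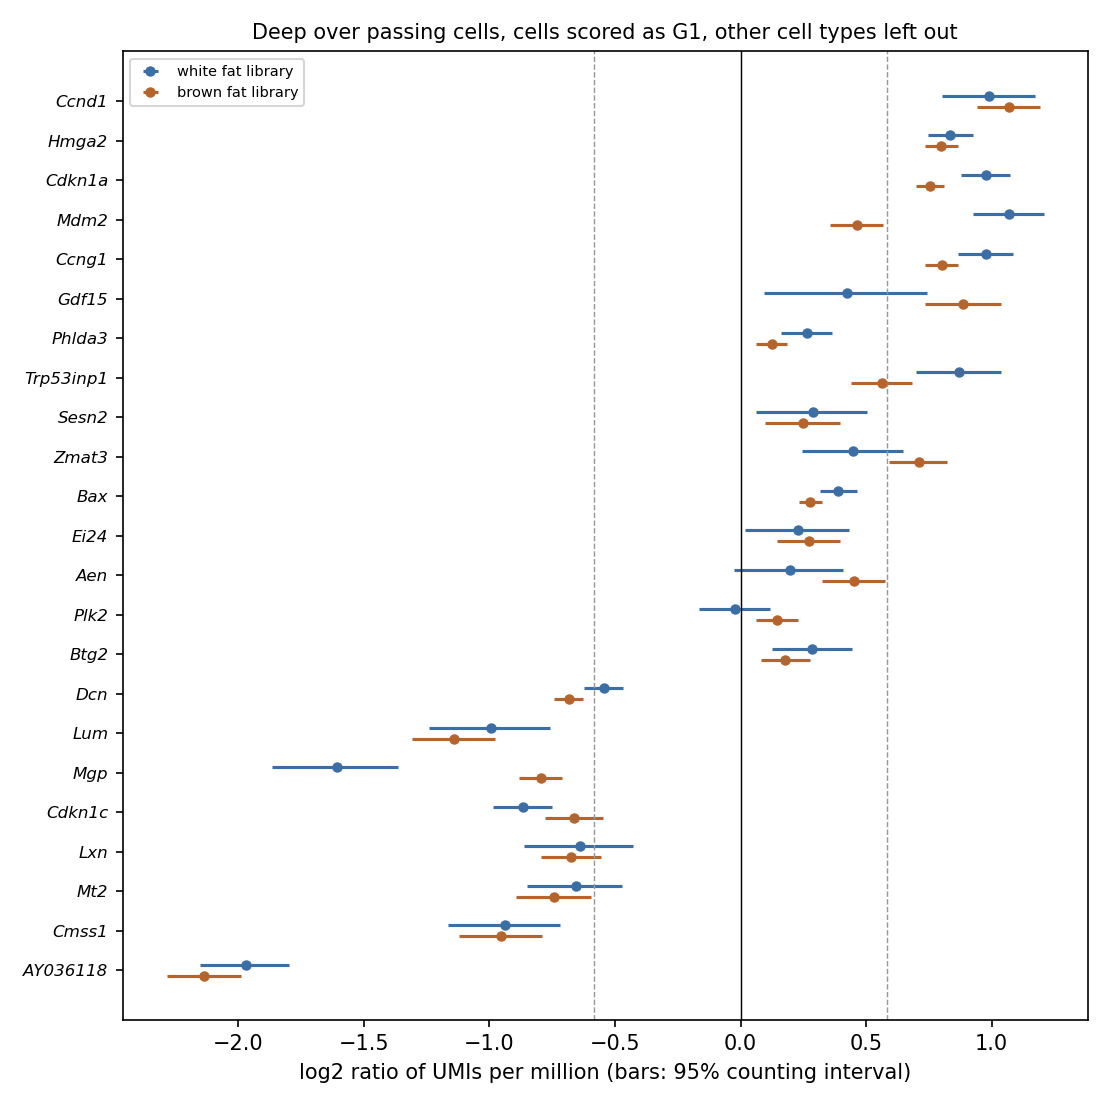
Log2 ratio of deep over passing cells in CPM, for cells classed as G1 without glial, myeloid and myogenic cells, with exact 95% intervals of counting error and dashed lines at 1.5-fold. Ccnd1, Hmga2 and the 13 p53 targets are followed by genes that were lower, of which Mgp in WAT has a ratio of -1.61 and AY036118 ratios of -1.97 and -2.14.

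Mgp and Lum were past 1.5-fold lower among these G1 cells in both libraries, and Dcn in BAT alone. Mgp was at 35.0 against 107 CPM in WAT and at 133 against 231 CPM in BAT, Lum at 38.1 against 75.98 and at 34.8 against 76.6 CPM, and Dcn at 373 against 545 and at 307 against 494 CPM. The collagen list had medians of 0.05 in WAT and 0.04 in BAT there, with 0 of 11 genes past the fold. Against the uppermost passing cells of all classes, Dcn was at 308 against 315 CPM in WAT (-0.03, -0.10 to 0.03) and at 282 against 335 CPM in BAT (-0.25, -0.30 to -0.20). Lum was higher there in white deep cells (0.32, 0.13 to 0.51) and lower in brown ones (-0.26, -0.39 to -0.12). In WAT the level of Dcn was thus about the same just below the limit as above it. Nuclear genes of oxidative phosphorylation had medians of -0.19 in WAT and -0.13 in BAT among the G1 cells and of -0.15 and -0.10 among all cells, with 0 of 73 past the fold. Dissociation response genes had medians of -0.06 and -0.14 among the G1 cells and of -0.17 and -0.15 among all cells, with 0 of 11 past the fold.

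Genes higher in deep G1 cells were longer than those tested, with a median of 76.7 kb in WAT and 51.1 kb in BAT, against 30.7 and 29.4 kb of all tested genes in GENCODE. Those that were lower had medians of 10.9 and 7.57 kb. Over all cells the higher genes had medians of 41.3 kb in WAT and 30.8 kb in BAT, against 30.7 and 29.1 kb of all tested genes. In BAT the higher genes were thus hardly longer than those tested when all cells were compared. The counts include reads from introns by the default of the counting software, and the part of intronic reads in these values was not tested.

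The clusters nearest to the deep cells were found by the votes of 15 passing neighbours that carry the study's cluster labels, at 10000 UMIs per cell. Labels were used for 2033 white and 2056 brown passing cells, so the shares of passing cells given here are votes too. Labelled cells got their own label back in 83.4% of white and 78.2% of brown cases, and 67.9% and 65.3% of the votes for a deep cell went to the label it was given. In WAT 100 of 239 deep cells (41.8%, 35.5 to 48.4%) fell to the committed precursors (wCAPs), against 36.4% of passing cells, and 67 (28.0%) to wAPC 1, against 24.9%. The cluster wAPC 4 received 0 deep cells, which allows a share of up to 1.26% by 3 counts and of up to 1.53% by the exact interval, against 1.72% (1.36 to 2.15%) of passing cells. The cluster wAPC 3, in which 57.7% of passing cells were classed as G2/M, received 16 deep cells (6.69%, 3.87 to 10.6%), of which 87.5% were G2/M, against 13.8% (12.8 to 14.8%) of passing cells. In BAT 169 of 412 (41.0%, 36.2 to 45.9%) fell to bAPC 1, against 31.9%, and 49 (11.9%) to bCAPs, against 11.5%. The cluster bAPC 5 received 5 (1.21%, 0.395 to 2.81%), against 3.41% (2.97 to 3.89%). Deep cells were spread over nearly all precursor clusters of their depot.

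The main clusters of fibro-adipogenic progenitor-like cells (FAPLs) received fewer deep cells. In WAT wFAPLs received 9 of 239 (3.77%, 1.74 to 7.03%) against 9.53% of passing cells. In BAT bFAPLs received 14 of 412 (3.40%, 1.87 to 5.64%) against 11.4%. The shortfall did not hold against the uppermost passing cells in WAT, where the difference was 0.32 percentage points (-3.50 to 4.12). In BAT it was -2.51 (-5.73 to 0.57). The small white cluster of differentiating wFAPLs was not lower, with 2 of 239 deep cells (0.837%, 0.102 to 2.99%) against 0.658% of passing cells. The genes the study names for FAPLs were chosen on these samples and so are not independent. Of them 0 of 6 were past the fold in WAT (median -0.03). In BAT 1 of 6 was lower (median -0.28), beside 0.291% of all brown genes tested. This was Meox2, a homeobox factor, at 17.97 against 26.99 CPM, a ratio of -0.59. Meox2 reached 20 CPM in passing cells alone, so the rule admitted it only where it was high. No conclusion is drawn from this count. Without glial, myeloid and myogenic cells 7 of these genes reached 20 CPM in BAT, and 1 was lower, beside 16 of 6846 genes tested. The lowest ratio of the 7 was -1.32 (median -0.39), while the ratio given for Meox2 is that of all cells. No conclusion is drawn from this count either. The study names 8 genes for committed precursors, Igf1, Igf2, Ank3, Cyp7b1, Lpl, Fabp4, Pparg and Ptn. Their medians were -0.13 in WAT and 0.05 in BAT. In BAT 0 were past the fold, and in WAT 1 was higher, beside 2.82% of all white genes tested. It was Ank3, which encodes ankyrin-G, at 175 against 112 CPM, and 1 cell held 10.6% of its UMIs in white deep cells. Without glial, myeloid and myogenic cells Ank3 was at 121 against 101 CPM, and 0 of the 8 were past the fold in WAT. Ptn, a growth factor and the most abundant of them, was at 1725 against 2447 CPM in WAT and at 1965 against 2397 CPM in BAT. Pparg, the master regulator of adipogenesis, was at 58.6 against 54.0 CPM and at 71.4 against 56.8 CPM.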

How the data were processed

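Per the file headers and values, the deposited files hold whole-number UMI counts for 32285 genes. The authors made these counts with Cell Ranger 7.0.1 at default settings against mm10 (GRCm38) and did not normalize them. The white library sums to 144451047 UMIs and the brown to 205551320. A gene entered the limits on detected genes when at least 3 captured cells held it.

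For thinning, 10000 UMIs were drawn from each cell without replacement. Phase scores used 24 expression bins and 100 control genes, and neighbours used 2000 variable genes and 20 components. Intervals are Clopper-Pearson for shares, Poisson for CPM and conditional binomial for ratios, and those of a difference between shares combine both shares' bounds by the square-and-add rule. The limit that a count of 0 allows is 3 counts. The 12 genes named in each direction have the largest ratios of the same sign in both libraries, ranked by the smaller one, at 50 CPM or more, and 3 in each direction differed most between libraries. The others belong to the lists. Members and lists were chosen with earlier results of these data known. Gene coordinates are from GENCODE. Scrublet marked 0 cells in either library and was not used further, so possible doublets were kept. Analyses used Python 3.11.15, numpy 2.4.6, scipy 1.17.1, pandas 2.3.3, scikit-learn 1.9.0 and scanpy 1.11.5. Scripts were tested on simulated data.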

Additional observations from a re-analysis of the deposited data

Results flagged for a closer look

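For 2 of the genes that differed most between depots the ratio of deep over passing cells had opposite signs in the libraries. Pde7b, a phosphodiesterase of cyclic AMP, had a log2 ratio of 0.30 (0.20 to 0.40) in WAT, at 61.9 against 50.3 CPM, and of -0.43 (-0.52 to -0.33) in BAT, at 39.4 against 52.97 CPM. Epha3, an ephrin receptor, had a ratio of 0.10 (0.05 to 0.15) in WAT, at 215 against 201 CPM, and of -0.59 (-0.69 to -0.50) in BAT, at 35.3 against 53.3 CPM. Without glial, myeloid and myogenic cells the ratios were 0.26 and -0.44 for Pde7b and 0.13 and -0.61 for Epha3. With 1 library per depot the difference was not tested.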

How the results depend on the processing

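Shares are given here as deep minus passing cells in percentage points. Of the values under alternatives, 71 stayed within the counting interval of the reported value or, for counts, within 1.5 times of it, 21 moved by more and 2 reversed. Among the 71, the difference for myogenic markers changed sign at 3 UMIs, from -0.0908 to 0.701 in WAT and from -0.0686 to 0.0927 in BAT, within intervals that hold 0, and that for brown glial markers went from 1.04 to 0.252 at 10 UMIs. With at least 60000 UMIs alone there were 117 white and 245 brown deep cells, and the white differences were 34.2 for G2/M (27.2 before) and -8.68 for FAPLs (-5.77 before). The genes past the fold were then 233 higher and 74 lower in WAT (199 and 21 before) and 74 higher and 41 lower in BAT (87 and 20 before), so that the lower ones differed by more than 1.5 times though the totals did not. In G1 cells with other types kept they were 140 and 55, and 33 and 40. Against passing cells of 45000 UMIs or more, the G2/M difference was 14.9 in WAT and 15.4 in BAT (23.1 before), that of FAPLs 0.317 and -2.51 (-8.02 before), that of brown cells with both Xist and Y UMIs -0.573 (3.92 before), and 83 white genes were past the fold. For Xist and Y together, 20000 UMIs per cell gave 9.01 in BAT, and no thinning gave 16.7 in WAT and 13.2 in BAT. Of the genes past the fold, 220 in WAT and 107 in BAT, 99 and 45 remained in number at 50 CPM or more, 42 and 7 at 2-fold, and 746 and 381 passed at the lower fold that was tried. Within G2/M cells there were 95 and 54, with 83 higher and 12 lower in WAT and 27 and 27 in BAT. The excess of higher genes was thus not seen among brown G2/M cells. Within G1 cells without glial, myeloid and myogenic cells there were 125 and 65. Relative to the median gene there were 159 higher and 37 lower genes in WAT and 70 and 25 in BAT. Without cells that hold both Xist and Y UMIs there were 229 higher and 36 lower genes in WAT and 94 and 23 in BAT. Under both alternatives the white lower genes differed from the reported 21 by more than 1.5 times, though the totals did not. The cause of these changes was not tested. Leaving out cells with both Xist and Y UMIs, and other cell types within G1, was chosen after seeing the data.

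No paired analysis was possible because each depot has 1 library. Leave-one-out fits were not run for the same reason, and a difference between depots cannot be told apart from one between libraries. Phase shares rest on 10000 UMIs per cell, and genes below 20 CPM were not counted.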

Other observations

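Spp1, the secreted phosphoprotein osteopontin, was at 45.6 against 66.3 CPM in white deep and passing cells, a log2 ratio of -0.54 (-0.65 to -0.43), and at 90.4 against 93.4 CPM in the brown ones, -0.05 (-0.11 to 0.02). A single cell held 15.6% of its UMIs in white deep cells. Gm26917, which lies beside AY036118 on chromosome 17 (39843013 to 39846341), was at 92.2 against 122 CPM in WAT and at 78.9 against 75.5 CPM in BAT, so that these neighbouring loci had different ratios. Serpinb1a, a serpin the study names for FAPLs, was at 6.23 against 13.5 CPM in WAT and at 7.84 against 19.8 CPM in BAT, under the 20 CPM of the rule.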
